A study of Homo sapiens with 20 samples.

Results

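A list of 9 genes that are widely used to mark breast cancer stem cells was followed through treatment of MDA-MB-231 cells with cisplatin, with the copper chelator ammonium tetrathiomolybdate (TM) and with both drugs. The genes were CD24, CD44, ITGA6 (CD49f), PROM1 (CD133), ALDH1A1, ALDH1A3, SOX2, BMI1 and NOTCH1. They were listed by name, and each was represented by the transcript cluster that carried only its symbol and had the highest mean over all arrays. Of the 9 listed genes, 8 were measured in this way, out of 18417 genes in all. BMI1 had no value of its own, because its cluster is annotated with 2 symbols (BMI1 and the read-through gene COMMD3-BMI1).

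MDA-MB-231 is an established line derived from a human breast cancer without hormone receptors or amplified HER2. The cells received 36 µM cisplatin together with 10 µM TM (Cis/TM), the same dose of cisplatin alone (Cis) or the same dose of TM alone (TM), each for 24 h or 12 h, or no drug (Control), and expression was read on whole-transcript arrays (Affymetrix Human Gene 1.0 ST). The 20 arrays fall into 7 groups of 3 (Cis/TM 24 h, Cis/TM 12 h, Cis 24 h, Cis 12 h, TM 24 h and Control) or of 2 (TM 12 h). Vehicle controls were described for each time in the methods, but no time is given for the 3 arrays labelled Control, so the same 3 arrays were set against both times and all 6 comparisons with Control share them.

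The markers belong to different parts of the cell. CD24 is a heavily glycosylated protein anchored in the outer membrane, CD44 is the main surface receptor for hyaluronan, and the integrin chain ITGA6 binds laminin in the basement membrane. PROM1 is a protein of membrane protrusions. The aldehyde dehydrogenases ALDH1A1 and ALDH1A3 oxidize retinal to retinoic acid and contribute to the ALDH activity by which stem-like breast cells are sorted. SOX2 is a transcription factor of pluripotent cells, BMI1 is a subunit of Polycomb repressive complexes, and NOTCH1 is a receptor that is cut after it binds a ligand on a neighboring cell, whereupon its inner part enters the nucleus and turns on HES and HEY genes. Breast cancer stem cells have been described as high in CD44 and low in CD24, as high in CD24 and CD49f, or as high in ALDH activity, depending on the model. Antibodies against CD24 and CD49f were used in the study to profile cells of mouse allograft tumors by flow cytometry, not the cells measured here. The arrays measured RNA of whole cultures, so that a change in the number of marker-bearing cells and a change in the RNA of each cell cannot be told apart.

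The values are log2 intensities after RMA, which carries no detection call, so that low values may be background signal. The markers of the line's identity were as follows. Of the mesenchymal genes, the filament VIM had log2 values of 11.05 to 11.33 over the 20 arrays and the cadherin CDH2 had 4.04 to 5.07. Among the luminal genes, ESR1 had 3.81 to 4.23, PGR 3.40 to 4.16, the epithelial cadherin CDH1 3.47 to 4.08, and the keratins KRT8 and KRT18 had 6.92 to 8.88 and 7.73 to 8.77. Of the leukocyte, endothelial and fibroblast markers that were measured (3 in each list), none was called in a comparison with Control, and the defining genes PTPRC (2.86 to 3.49), PECAM1 (4.22 to 4.83) and DCN (3.03 to 3.62) had low values. The fibroblast gene COL1A1 had 6.14 to 6.71. Array medians ran from 5.71 to 5.94, and pairs of arrays within a group correlated across genes with r from 0.983 to 0.997. The SD over genes was 2.03 to 2.18 on the treated arrays and 2.01 to 2.03 on the Control arrays. Array A of Cis 12 h and array A of TM 24 h were separated from the other arrays of their group by principal component 2. The methods describe replicate wells for each treatment, and the labels do not say whether the arrays of a group came from separate cultures, so that the p-values measure the spread between arrays, which may be technical.

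A gene was called up or down at an adjusted p under 0.05 (limma, Benjamini-Hochberg over all 18417 genes) together with a fold change over 1.5. Against Control, 3 of the 8 measured markers were called at least once, ITGA6, CD24 and NOTCH1, and the other 5 (CD44, PROM1, ALDH1A1, ALDH1A3 and SOX2) were called in none of the 17 comparisons made. In Cis/TM 24 h, 1 of 8 markers was called, where 7.02% of all genes were called. In Cis/TM 12 h, 2 of 8 were called, where 23.8% of all genes were. The corresponding numbers were 2 of 8 and 16.4% in Cis 24 h, 2 of 8 and 25.5% in Cis 12 h, 2 of 8 and 7.72% in TM 24 h, and 2 of 8 and 12.1% in TM 12 h. At 12 h with cisplatin the share of the markers lies close to the background, and in the other groups 1 or 2 genes of 8 are too few to be read against it. The median log2 fold change of the 8 markers ran from −0.15 in TM 24 h to 0.02 in Cis/TM 12 h, beside medians over all genes from −0.0461 to −0.0022.

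**Figure D1:**
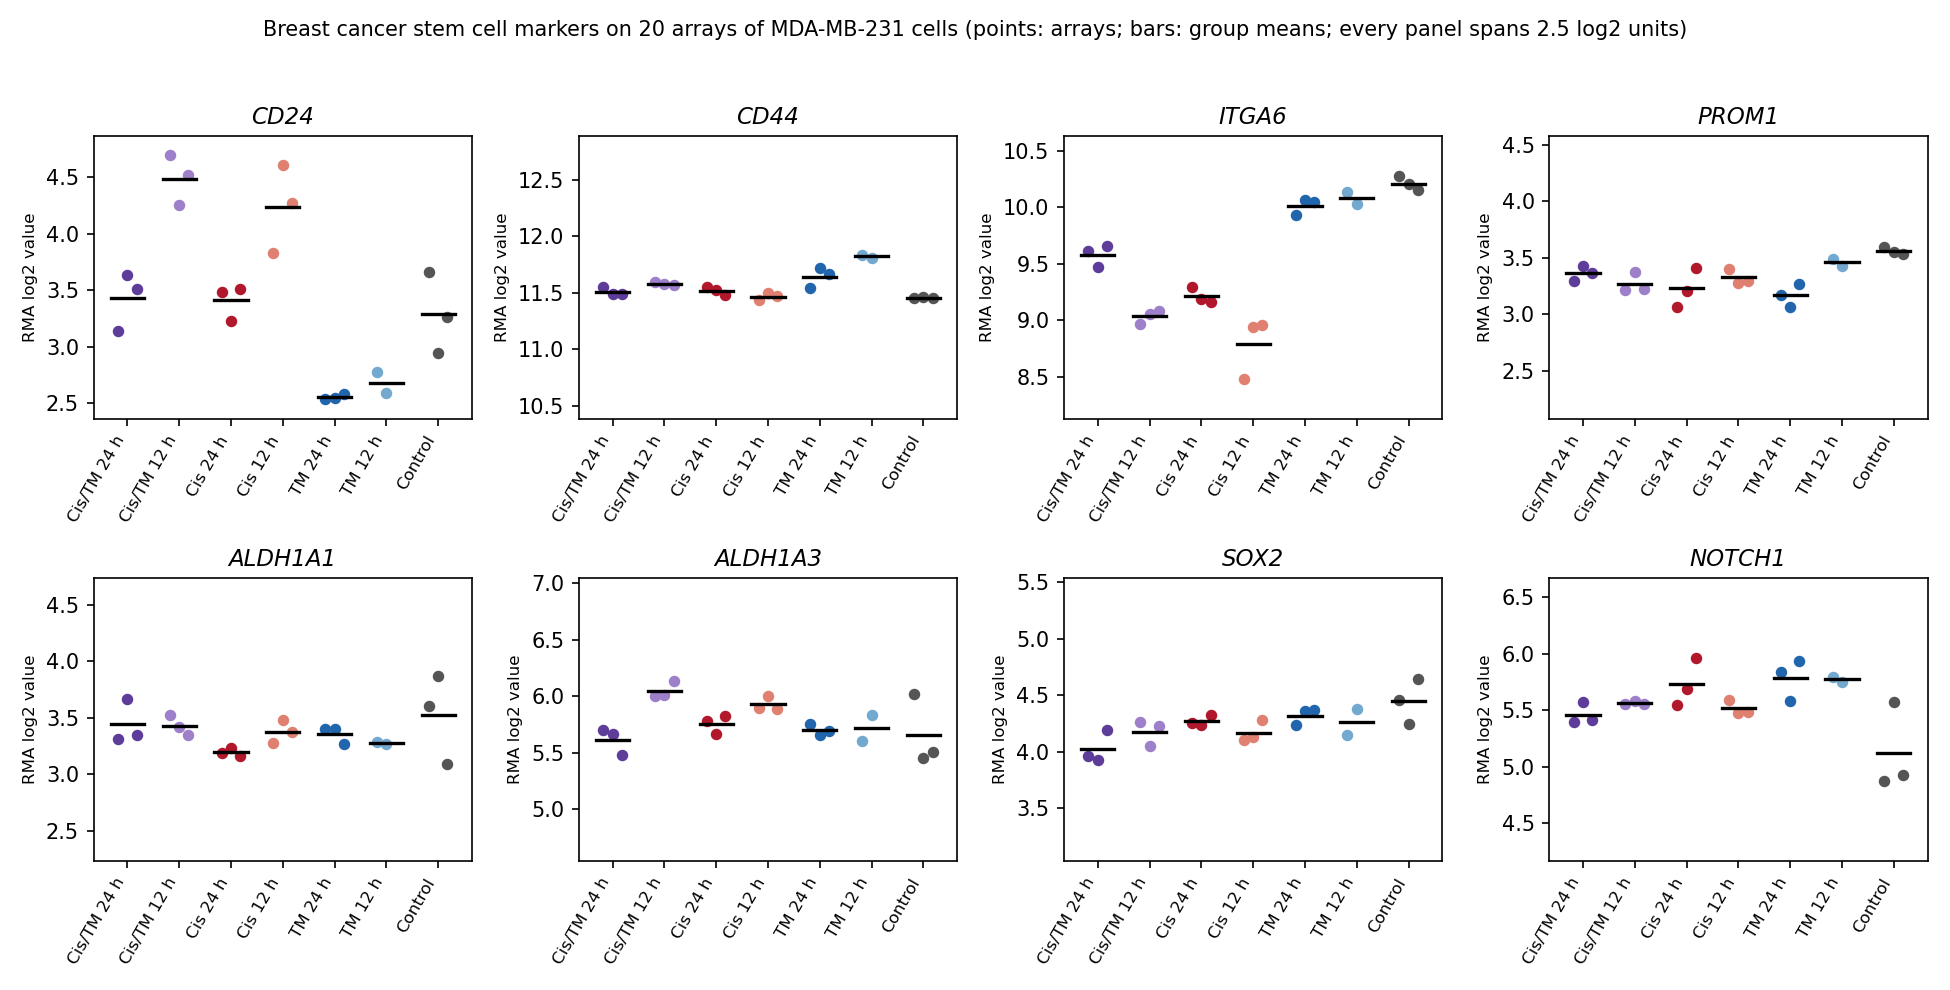
Log2 values (vertical axis, RMA) of the 8 measured markers on the 20 arrays, by group (horizontal axis), with 1 point per array and a bar at the group mean; every panel spans the same range of log2 units. ITGA6 is low on every cisplatin array, CD24 is high in Cis/TM 12 h and Cis 12 h and low in both TM groups, and CD44 stays between 11.44 and 11.84 on every array.

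**Figure D2:**
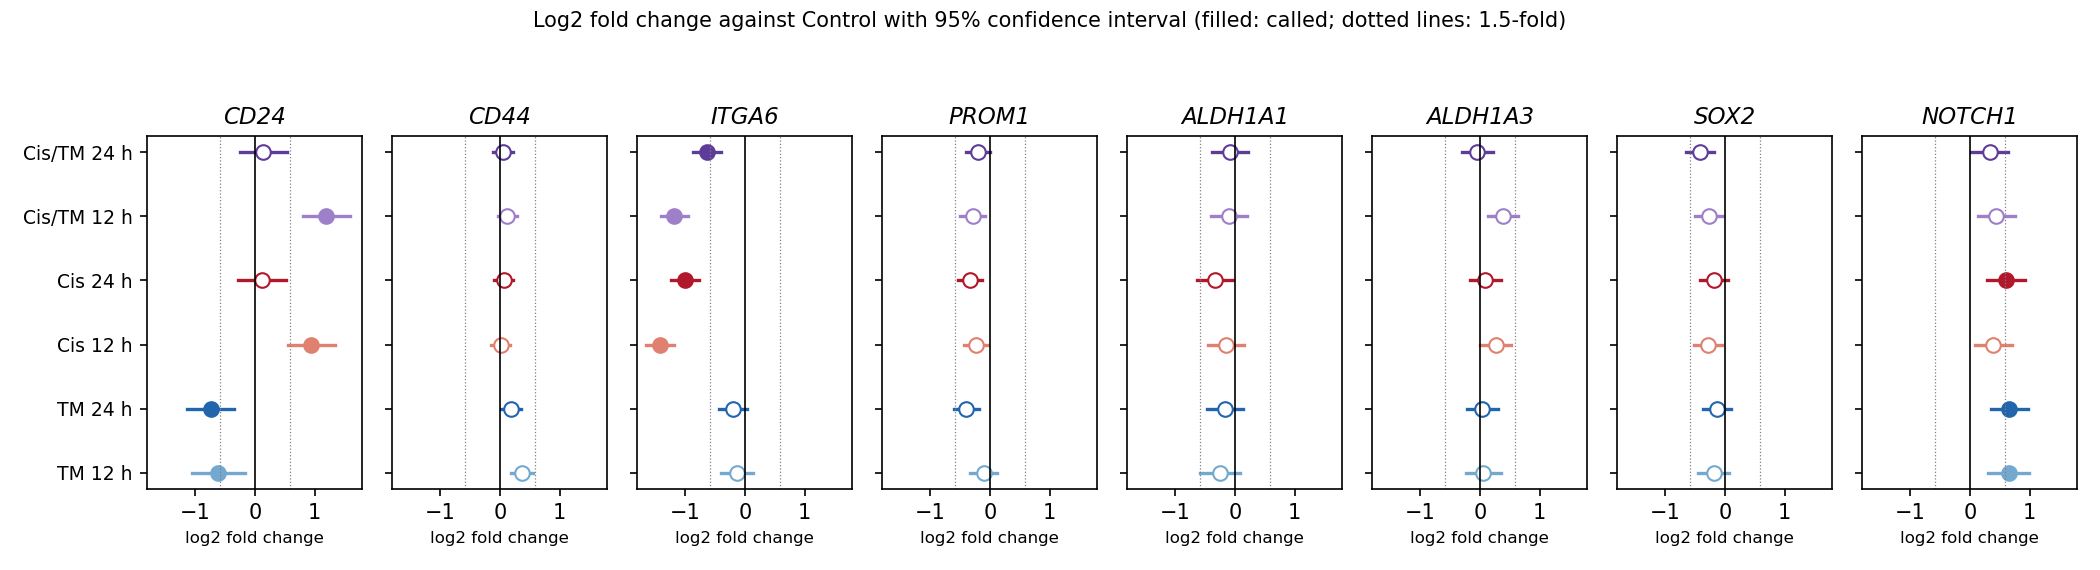
Log2 fold change against Control (horizontal axis) of the 8 measured markers in the 6 treated groups (rows), with 95% confidence intervals from limma; filled points were called, and dotted lines mark a fold change of 1.5. ITGA6 carries 4 filled points on the left, CD24 has filled points on both sides, and NOTCH1 has 3 filled points on the right.

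ITGA6 was lower on every array of cells that had received cisplatin. Its log2 values at 24 h were 9.62, 9.48 and 9.66 with Cis/TM, 9.30, 9.19 and 9.16 with Cis and 9.93, 10.07 and 10.04 with TM. At 12 h they were 8.97, 9.05 and 9.08 with Cis/TM, 8.48, 8.94 and 8.96 with Cis and 10.13 and 10.03 with TM alone. The Control arrays gave 10.28, 10.20 and 10.15. The cisplatin groups did not overlap with Control, the 5 TM arrays were also below all 3 Control arrays by a smaller margin, and the lowest value of all was that of array A of Cis 12 h.

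Cis 12 h showed the largest change in ITGA6, a fall of 2.67-fold (log2 fold change −1.42, SE 0.11, adjusted p = 4.91e-09). It fell 2.26-fold in Cis/TM 12 h (−1.18, SE 0.11, adjusted p = 6.83e-08), 1.99-fold in Cis 24 h (−0.99, SE 0.11, adjusted p = 1.51e-06) and 1.55-fold in Cis/TM 24 h (−0.63, SE 0.11, adjusted p = 6.23e-04). With array A of Cis 12 h left out, the log2 fold change in Cis 12 h was −1.26 (adjusted p = 8.84e-09). In Cis/TM 24 h the change lay close to the fold limit, and without array B of that group it was −0.58 and no longer passed it. With TM alone, ITGA6 was not called, with log2 fold changes of −0.20 at 24 h (95% CI −0.43 to 0.04, adjusted p = 0.223) and −0.13 at 12 h (95% CI −0.39 to 0.13, adjusted p = 0.474).

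Direct comparisons between the drugs, which use no Control array, gave the same order for ITGA6. Cis lay below TM by 0.80 at 24 h (SE 0.11, adjusted p = 3.60e-05) and by 1.29 at 12 h (SE 0.12, adjusted p = 1.62e-07) on the log2 scale, in comparisons in which 8.55% and 17.2% of all genes were called. Cis/TM lay below TM by 1.05 at 12 h (SE 0.12, adjusted p = 3.11e-06), where 13.6% of all genes were called. At 24 h the difference between Cis/TM and TM was −0.43 (adjusted p = 0.0123), which did not reach the fold limit, and 6.28% of all genes were called there. ITGA6 in Cis/TM lay 0.37 above Cis at 24 h (95% CI 0.13 to 0.60, adjusted p = 0.0717) and 0.24 above Cis at 12 h (95% CI 0.01 to 0.47, adjusted p = 0.512), and neither difference was called.

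Among the genes that work with ITGA6, 7 of 10 were measured. They comprise its partner chains ITGB1 and ITGB4, laminins, the tetraspanin CD151, which associates with laminin-binding integrins, and the linker proteins PLEC and DST that tie the integrin to keratin in hemidesmosomes. DST fell by 0.75 (SE 0.11, adjusted p = 9.96e-06) in Cis/TM 12 h, by 0.63 (SE 0.11, adjusted p = 0.000131) in Cis 24 h and by 0.997 (SE 0.11, adjusted p = 2.54e-07) in Cis 12 h on the log2 scale, and its call in Cis 24 h was lost without Control C. CD151 moved the other way and rose by 1.35 (SE 0.17, adjusted p = 2.94e-06) in Cis/TM 12 h, by 0.73 (SE 0.17, adjusted p = 0.00273) in Cis 24 h, by 1.597 (SE 0.17, adjusted p = 2.98e-07) in Cis 12 h and by 0.68 (SE 0.19, adjusted p = 0.0148) in TM 12 h. Its arrays gave 8.31 to 8.77 in Cis/TM 12 h and 8.54 to 8.94 in Cis 12 h, against 6.77 to 7.36 in Control. The call of CD151 in Cis 24 h was lost under 3 of 15 alternatives (down to 0.46, without Control A among them), and that in TM 12 h under 6 of 14 (down to 0.42, without Control A or either TM 12 h array among them). In Cis/TM 12 h and in Cis 12 h, 2 of the 7 measured partners were called up and 1 was called down, in Cis 24 h 1 was up and 1 down, in TM 12 h 2 were up, and in Cis/TM 24 h and TM 24 h none was called. Over all genes, 23.8% were called in Cis/TM 12 h, 25.5% in Cis 12 h and 7.02% to 16.4% in the other 4 groups. A list of 7 genes is too short to be read against these shares.

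CD24 moved in opposite directions under the single drugs at 12 h. Its log2 values at 24 h were 3.14, 3.63 and 3.51 with Cis/TM, 3.49, 3.23 and 3.52 with Cis and 2.53, 2.55 and 2.58 with TM. At 12 h they were 4.69, 4.25 and 4.52 with Cis/TM, 3.83, 4.61 and 4.27 with Cis and 2.78 and 2.59 with TM alone. The Control arrays gave 3.66, 2.95 and 3.26. The 6 arrays of cisplatin-treated cells at 12 h were all above the Control arrays, the 5 TM arrays were all below them, and the cisplatin arrays at 24 h overlapped with Control. These are low values. The signal of CD24 was above that of 20.6 to 29.8% of genes on the Cis/TM 12 h arrays and 12.6 to 27.5% on the Cis 12 h arrays, of only 0.0815 to 0.863% on the 5 TM arrays, and of 7.58, 0.483 and 2.25% on the Control arrays. The TM values and that of Control B thus lay at the lower end of their arrays, where they may be background, so that the differences below are differences in signal and give no exact fold of RNA. CD24 has near-identical copies in the human genome. The annotation gives its cluster 1 gene, and whether the probes also read these copies was not examined.

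The signal of CD24 rose by 1.20 (SE 0.19, adjusted p = 3.12e-05) in Cis/TM 12 h and by 0.95 (SE 0.19, adjusted p = 3.37e-04) in Cis 12 h on the log2 scale. Both calls held under every other processing that kept the gene and with each array left out. Leaving out array A of Cis 12 h gave 1.15 (adjusted p = 6.80e-05). At 24 h the log2 fold changes were 0.14 (95% CI −0.25 to 0.53) in Cis/TM and 0.12 (95% CI −0.27 to 0.51) in Cis, and neither was called. With TM alone the signal fell to the lower end of the arrays, with log2 differences of −0.74 (SE 0.19, adjusted p = 0.00891) at 24 h and −0.61 (SE 0.21, adjusted p = 0.0398) at 12 h.

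The calls of CD24 with TM alone depended on the scaling of the arrays. After quantile normalization the log2 fold change was −0.54 at 24 h and −0.36 at 12 h, and after removal of the trend with signal level it was −0.54 and −0.33, all short of a call. Without Control A it was −0.55 (adjusted p = 0.0498, under the fold limit) at 24 h and −0.42 (adjusted p = 0.154) at 12 h. At 12 h the call was also lost without Control C (−0.62, adjusted p = 0.0624), without array A of TM 12 h (−0.70, adjusted p = 0.105) and without array B (−0.51, adjusted p = 0.224). Array A of TM 24 h, which stood apart, did not decide the call at 24 h (−0.73, adjusted p = 0.0241 without it).

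CD24 was also compared without the Control arrays, against TM arrays at the lower end of the signal. Cis/TM exceeded TM on the log2 scale by 0.87 at 24 h (SE 0.19, adjusted p = 3.20e-03) and by 1.805 at 12 h (SE 0.21, adjusted p = 2.41e-06). Cis exceeded TM by 0.86 at 24 h (SE 0.19, adjusted p = 0.00275) and by 1.55 at 12 h (SE 0.21, adjusted p = 1.00e-05). Cis/TM and Cis differed by 0.02 at 24 h (95% CI −0.38 to 0.41) and by 0.25 at 12 h (95% CI −0.14 to 0.65), and neither difference was called. For all 8 markers, no call was made between Cis/TM and Cis by limma, at 24 h, where 1.5% of all genes were called, or at 12 h, where 0% were called. At an unadjusted p under 0.05, 2 of the 8 markers passed at 24 h and 1 at 12 h.

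The signal of CD24 in cisplatin-treated cells was lower at the later time. The log2 difference of Cis 24 h from Cis 12 h was −0.83 (SE 0.19, adjusted p = 2.81e-03), where 10.6% of all genes were called, and with Cis/TM the difference of 24 h from 12 h was −1.06 (SE 0.19, adjusted p = 2.31e-04), where 13.7% were called. Without array A of Cis 12 h the difference in Cis was −1.03. ITGA6 was higher at 24 h than at 12 h, by 0.42 (adjusted p = 8.36e-03) in Cis and by 0.55 (adjusted p = 8.28e-04) in Cis/TM, both under the fold limit. For these 2 genes the levels at 24 h were therefore nearer to Control than those at 12 h. Under TM none of the 8 markers differed between 24 h and 12 h by a call (1 passed at an unadjusted p under 0.05), and 0.00543% of all genes did.

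CD44 was nearly constant. The log2 values at 24 h were 11.55, 11.49 and 11.49 with Cis/TM, 11.55, 11.52 and 11.49 with Cis and 11.54, 11.72 and 11.67 with TM. At 12 h they were 11.59, 11.58 and 11.57 with Cis/TM, 11.44, 11.49 and 11.47 with Cis and 11.84 and 11.81 with TM alone. The Control arrays gave 11.45, 11.46 and 11.45. Every treated array except 1 of Cis 12 h lay above all 3 Control arrays, by small margins. The mean signal was above that of 99.5% of genes. In TM 12 h the log2 fold change was 0.37 (SE 0.09, adjusted p = 0.00427), which is 1.29-fold and under the fold limit, and both arrays lay above all others. The 95% confidence intervals of the remaining comparisons with Control reached from −0.15 to 0.35. A transcript cluster summarizes probes over the exons of a gene, so that a shift between the splice forms of CD44 would not be seen in it.

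Around CD44, 10 of 14 genes of hyaluronan metabolism, cytoskeletal linkage and CD44 splicing or cleavage were measured, and they did not share a direction. HAS2, the hyaluronan synthase that makes long chains, fell by 0.59 (SE 0.13, adjusted p = 0.00387) in Cis/TM 24 h, by 0.92 (SE 0.13, adjusted p = 1.01e-05) in Cis/TM 12 h and by 1.37 (SE 0.13, adjusted p = 5.49e-08) in Cis 12 h on the log2 scale. HAS3, a related synthase, rose by 1.11 (SE 0.11, adjusted p = 1.59e-07) in Cis/TM 12 h, by 0.81 (SE 0.11, adjusted p = 1.66e-05) in Cis 24 h and by 1.14 (SE 0.11, adjusted p = 8.49e-08) in Cis 12 h. The fall of HAS2 in Cis/TM 24 h lay at the fold limit and lost its call without array A or B of that group and without Control A or C. HMMR, another hyaluronan receptor that also serves in the mitotic spindle, fell by 0.75 (SE 0.17, adjusted p = 0.000967) in Cis/TM 12 h, by 1.14 (SE 0.17, adjusted p = 1.07e-05) in Cis 12 h, by 1.16 (SE 0.17, adjusted p = 8.21e-05) in TM 24 h and by 1.19 (SE 0.19, adjusted p = 0.000131) in TM 12 h. Of the 10 genes, 1 was up and 2 were down in Cis/TM 12 h and in Cis 12 h, 1 was up in Cis 24 h, and 1 was down in each of Cis/TM 24 h, TM 24 h and TM 12 h. Over all genes, 23.8% and 25.5% were called in Cis/TM 12 h and Cis 12 h, and 7.02% to 16.4% in the other groups.

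NOTCH1 was higher than Control on most treated arrays, and its Control arrays disagreed with each other. The log2 values at 24 h were 5.40, 5.57 and 5.41 with Cis/TM, 5.54, 5.69 and 5.96 with Cis and 5.84, 5.58 and 5.93 with TM. At 12 h they were 5.56, 5.58 and 5.56 with Cis/TM, 5.59, 5.48 and 5.49 with Cis and 5.79 and 5.75 with TM alone. The Control arrays gave 4.87, 5.57 and 4.93. Control B lay within the range of the treated arrays, and only the TM groups lay wholly above the 3 Control arrays. NOTCH1 rose 1.52-fold in Cis 24 h (log2 fold change 0.60, SE 0.15, adjusted p = 3.41e-03), 1.58-fold in TM 24 h (0.66, SE 0.15, adjusted p = 3.81e-03) and 1.57-fold in TM 12 h (0.65, SE 0.17, adjusted p = 7.64e-03). In Cis/TM 12 h and Cis 12 h it differed by 0.44 (adjusted p = 0.0201) and 0.39 (adjusted p = 0.0353), under the fold limit, and in Cis/TM 24 h by 0.33 (95% CI 0.02 to 0.65, adjusted p = 0.122).

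Each NOTCH1 call was lost without Control A or without Control C. Without Control A, the log2 fold changes were 0.48 in Cis 24 h and, with TM, 0.53 at 24 h and 0.52 at 12 h, and without Control C they were 0.51, 0.56 and 0.55 in the same groups. Without Control B they were 0.83, 0.88 and 0.87, and NOTCH1 was then also called in Cis/TM 12 h (0.66, adjusted p = 2.24e-04) and Cis 12 h (0.62, adjusted p = 4.00e-04). Without array A of TM 24 h, NOTCH1 in that group was 0.63 above Control (adjusted p = 0.014). When only the 2 compared groups were fitted, the adjusted p was 0.0511, 0.0885 and 0.107, and no call was made. The call in Cis 24 h was also lost without array C of that group (0.49), after centring of the arrays (0.51) and after removal of the trend with level (0.56), and that in TM 12 h was lost without array A of that group (adjusted p = 0.0699).

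The Notch pathway was followed from ligands to targets. Of 5 ligands, all measured, JAG1 fell by 0.67 (SE 0.14, adjusted p = 0.00261) in Cis/TM 24 h, by 0.72 (SE 0.14, adjusted p = 0.000331) in Cis/TM 12 h, by 0.63 (SE 0.14, adjusted p = 0.00165) in Cis 24 h and by 0.80 (SE 0.14, adjusted p = 9.92e-05) in Cis 12 h on the log2 scale, and no other ligand was called. NOTCH2, the paralog of NOTCH1, fell by 0.88 (SE 0.16, adjusted p = 0.000132) in Cis 12 h, and the other receptors NOTCH3 and NOTCH4 were called in no treated group. None of the ligands was called with TM alone. The call of JAG1 was lost without array C in Cis/TM 24 h, and without array B or Control B in Cis 24 h.

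ADAM10, a sheddase that makes the first cut in the receptor after ligand binding, and the related ADAM17 fell with cisplatin at 12 h, whereas PSENEN, a subunit of the gamma-secretase that makes the next cut, rose. ADAM10 averaged 9.88 ± 0.07 in Cis/TM 12 h and 9.63 ± 0.19 in Cis 12 h, against 10.93 ± 0.08 in Control (SD, n = 3 each), which are changes of −1.05 (SE 0.09, adjusted p = 3.84e-08) and −1.30 (SE 0.09, adjusted p = 2.12e-09). ADAM17 fell by 0.70 (adjusted p = 1.08e-05) and 0.97 (adjusted p = 1.48e-07) in these groups, and NUMB, an inhibitor of Notch that directs its endocytosis, fell by 0.82 (adjusted p = 1.58e-06) and 0.99 (adjusted p = 1.12e-07). PSENEN was called up in all 6 groups, with log2 fold changes of 0.69, 0.93, 1.35, 1.10, 0.66 and 1.21 in Cis/TM 24 h, Cis/TM 12 h, Cis 24 h, Cis 12 h, TM 24 h and TM 12 h. The call in TM 24 h was lost under 5 of 15 alternatives, and that in Cis/TM 24 h without Control C. Of 14 measured genes of receptor processing, 5 were up and 3 down in Cis/TM 12 h, 3 up and 3 down in Cis 12 h, and between 1 and 3 were up, with none down, in the other 4 groups. Over all genes, 23.8% were called in Cis/TM 12 h, 25.5% in Cis 12 h and 7.02% to 16.4% in the other 4 groups.

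In the nucleus, the cut receptor joins RBPJ and a Mastermind coactivator. MAML2 averaged 6.53 ± 0.15 at 24 h and 5.41 ± 0.04 at 12 h with Cis/TM, and 5.98 ± 0.18 at 24 h and 5.39 ± 0.14 at 12 h with Cis, against 7.19 ± 0.10 in Control (SD, n = 3 each), and the change in Cis 12 h was −1.796 (SE 0.12, adjusted p = 8.72e-10). TM alone left MAML2 at 7.12 ± 0.21 at 24 h (SD, n = 3). RBPJ fell by 0.67 (adjusted p = 5.71e-06) in Cis/TM 12 h and by 0.91 (adjusted p = 9.33e-08) in Cis 12 h, and MAML3 fell by 0.63 (adjusted p = 0.00237) in Cis/TM 24 h and by 0.69 (adjusted p = 0.000444) in Cis 24 h. The call of RBPJ in Cis/TM 12 h was lost with the mean of all its clusters (−0.57). Both calls of MAML3 were lost without Control B, and that in Cis/TM 24 h also without array A of the group and after removal of the trend with level. In each of the 4 cisplatin groups, 2 of the 4 measured nuclear genes were called down and none up, and no nuclear gene was called with TM alone. Over all genes, 7.02% to 25.5% were called in the cisplatin groups, and 7.72% and 12.1% with TM at 24 h and 12 h. A list of 4 genes is too short to be read against these shares.

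Among 8 Notch target genes, only single members were called against Control. HEYL rose by 0.63 (adjusted p = 0.000867) in Cis/TM 12 h and by 0.73 (adjusted p = 0.000179) in Cis 12 h, changes that fell under the limit after centring or removal of the trend with level. HES1 fell by 0.74 (adjusted p = 0.000374) in TM 24 h, a group in which NOTCH1 itself was called up. No target was called in Cis/TM 24 h, Cis 24 h or TM 12 h, where 7.02%, 16.4% and 12.1% of all genes were called. In Cis/TM 12 h, Cis 12 h and TM 24 h, 23.8%, 25.5% and 7.72% of all genes were called.

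ALDH1A1 and PROM1 had values near the lower end of the arrays. ALDH1A1 ranged from 3.16 to 3.67 on the 17 treated arrays, against 3.61, 3.87 and 3.10 in Control, so that every treated array lay between the highest and the lowest Control array. Its log2 fold changes were not called, and their 95% confidence intervals ran from −0.63 in Cis 24 h to 0.22 in Cis/TM 24 h. PROM1 ranged from 3.06 to 3.49 on the treated arrays, all below the Control values of 3.59, 3.55 and 3.54. Its differences were −0.29 (adjusted p = 0.0193) in Cis/TM 12 h, −0.33 (adjusted p = 0.0114) in Cis 24 h and −0.39 (adjusted p = 0.00719) in TM 24 h, all under the fold limit. Removal of the trend with level left 0.04, −0.04 and −0.18 in the same groups, with the sign turned in Cis/TM 12 h. The mean of PROM1 exceeded that of 5.28% of genes and that of ALDH1A1 5.87%.

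ALDH1A3 had moderate values. The log2 values at 24 h were 5.70, 5.66 and 5.48 with Cis/TM, 5.78, 5.66 and 5.82 with Cis and 5.75, 5.65 and 5.69 with TM. At 12 h they were 6.00, 6.01 and 6.13 with Cis/TM, 5.89, 6.00 and 5.89 with Cis and 5.61 and 5.83 with TM alone. The Control arrays gave 6.02, 5.45 and 5.51. Control A lay above the other Control arrays and overlapped with Cis/TM 12 h. The difference in Cis/TM 12 h was 0.39 (SE 0.12, adjusted p = 0.0144), under the fold limit, and Cis/TM 24 h lay 0.43 below Cis/TM 12 h (SE 0.12, adjusted p = 0.0114), also under it. SOX2 ranged from 3.92 to 4.37 on the treated arrays, against 4.46, 4.24 and 4.64 in Control. Its differences were −0.42 (adjusted p = 0.0120) in Cis/TM 24 h, where all 3 arrays lay below Control, and −0.28 (adjusted p = 0.0464) in Cis 12 h, and neither reached the fold limit. Over the alternatives they shrank to −0.28 (limma, highest adjusted p 0.135) and −0.16 (highest adjusted p 0.323). The mean of SOX2 exceeded that of only 20.1% of genes, so that its values may be background.

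All 19 genes of the wider family of aldehyde dehydrogenases were measured, and at most 3 were called in a group. The 3 calls were in TM 12 h, where 12.1% of all genes were called. In Cis/TM 12 h and in Cis 12 h 1 was called, where 23.8% and 25.5% of all genes were. ALDH1L2, the mitochondrial enzyme of folate metabolism, fell by 0.92 (SE 0.14, adjusted p = 2.83e-05) in Cis/TM 12 h, by 0.81 (SE 0.14, adjusted p = 9.58e-05) in Cis 12 h, by 0.76 (SE 0.14, adjusted p = 0.000975) in TM 24 h and by 0.999 (SE 0.16, adjusted p = 0.000172) in TM 12 h on the log2 scale. In TM 12 h ALDH3A2, which oxidizes fatty aldehydes, fell by 0.65, and ALDH18A1, an enzyme of proline synthesis, rose by 0.61. The call of ALDH3A2 was lost without array B of that group, and that of ALDH18A1 without Control C and after each of 3 rescalings of the arrays.

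Against Control, genes of retinoic acid handling were called up and none was called down. CRABP2, which carries retinoic acid to its nuclear receptor, averaged 5.91 ± 0.10 at 24 h and 6.66 ± 0.27 at 12 h with Cis/TM, and 6.82 ± 0.26 at 24 h and 6.43 ± 0.39 at 12 h with Cis, against 4.75 ± 0.24 in Control (SD, n = 3 each). It was called up in all 6 groups, with the largest change in Cis 24 h (log2 fold change 2.08, SE 0.18, adjusted p = 5.35e-08) and the smallest in TM 24 h (0.67, SE 0.18, adjusted p = 0.0105). RDH10, which makes retinal from retinol one step before the ALDH1A enzymes, rose by 0.65 (adjusted p = 0.00111) in Cis/TM 24 h, 1.55 (adjusted p = 7.58e-09) in Cis/TM 12 h, 0.92 (adjusted p = 1.06e-05) in Cis 24 h and 1.53 (adjusted p = 6.46e-09) in Cis 12 h. The calls of CRABP2 in TM 24 h and of RDH10 in Cis/TM 24 h were lost without Control C and after removal of the trend with level, and that of RDH10 also after quantile normalization. In TM 24 h RDH10 had 6.55 ± 0.22 (SD, n = 3), against 6.91 ± 0.23 in Control (SD, n = 3). Of the 10 measured genes of retinoic acid handling, 3 were up in Cis/TM 24 h, 4 in each of Cis/TM 12 h, Cis 24 h and Cis 12 h, and with TM 1 at 24 h and 2 at 12 h.

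Of the pluripotency factors grouped with SOX2, 6 of 8 were measured, and POU5F1 and NANOG had no cluster of their own. KLF4 rose by 0.73 (adjusted p = 1.30e-05) in Cis/TM 12 h and by 0.87 (adjusted p = 1.41e-06) in Cis 12 h, and the call in Cis/TM 12 h was lost after quantile normalization and after removal of the trend with level (down to 0.45). SALL4 and LIN28B had called changes between −0.60 and −0.78 that were lost after removal of the trend with level. No other gene of the list was called.

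BMI1 could not be described by itself, but 12 of the 16 listed genes of Polycomb repressive complex 1 and all 7 of complex 2 were measured. In complex 1, PCGF6, a paralog of BMI1 that takes its place in a variant complex, was called up in all 6 groups, with log2 fold changes of 1.0003, 0.97, 1.17, 0.67, 0.95 and 1.285 in Cis/TM 24 h, Cis/TM 12 h, Cis 24 h, Cis 12 h, TM 24 h and TM 12 h. The call in Cis 12 h was lost under 4 of 15 alternatives (centring, the mean of all clusters, without Control A and without Control B, down to 0.38). In Cis 12 h PCGF2 rose by 0.76 (adjusted p = 6.17e-06) and PCGF1 by 0.94 (adjusted p = 1.16e-05), with lower adjusted p-values than PCGF6. Complex 1 had 3 genes called up in each group at 12 h, 1 in each group at 24 h and none called down. Over all genes, 12.1% to 25.5% were called at 12 h and 7.02% to 16.4% at 24 h. JARID2, which guides complex 2 to chromatin, averaged 7.15 ± 0.15 at 24 h and 6.16 ± 0.04 at 12 h with Cis/TM, and 6.79 ± 0.03 at 24 h and 6.03 ± 0.12 at 12 h with Cis, against 8.02 ± 0.20 in Control (SD, n = 3 each). Its change in Cis 12 h was −1.99 (SE 0.11, adjusted p = 1.27e-10), and with TM alone it had 7.82 ± 0.16 at 24 h (SD, n = 3) and was not called. JARID2 was the only gene of complex 2 called down in a cisplatin group, and 1 gene of complex 2 was up in Cis 24 h (EED, 0.59, lost under 5 of 15 alternatives, without array C of the group or Control C among them) and 1 in TM 12 h (RBBP4, 0.74, lost after removal of the trend with level).

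Other markers of stem-like cells were measured in full (12 of 12). NT5E (CD73) fell by 0.77 (SE 0.08, adjusted p = 1.86e-06) in Cis/TM 24 h, by 0.96 (SE 0.08, adjusted p = 3.70e-08) in Cis 24 h, by 0.72 (SE 0.08, adjusted p = 7.94e-06) in TM 24 h and by 0.66 (SE 0.09, adjusted p = 3.07e-05) in TM 12 h on the log2 scale. EPCAM, the epithelial adhesion molecule, fell by 0.95 (SE 0.16, adjusted p = 5.52e-05) in Cis/TM 12 h, by 0.89 (SE 0.16, adjusted p = 9.53e-05) in Cis 12 h and by 0.59 (SE 0.18, adjusted p = 0.0179) in TM 12 h, where the call was lost under 6 of 14 alternatives (down to −0.23), without Control C or either TM 12 h array among them. ABCG2, a drug efflux transporter, rose by 0.70 (SE 0.19, adjusted p = 0.0119) in Cis/TM 24 h and by 0.61 (SE 0.19, adjusted p = 0.0148) in Cis 24 h, and ENG, a co-receptor of TGF-beta, rose by 0.60 (SE 0.10, adjusted p = 0.000405) in TM 24 h. The call of ABCG2 was lost without Control A in both groups and without 1 further array of each group (A of Cis/TM 24 h and C of Cis 24 h), and that of ENG under 7 of 15 alternatives, without Control C and without array A or C of TM 24 h among them. In Cis 24 h the ABCG2 call was lost under 5 of 15 alternatives (down to 0.42). Centring, quantile normalization and removal of the trend with level were among those 5. At most 1 gene of the list was up and at most 2 were down in any group. Between 7.02% and 25.5% of all genes were called in these groups.

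Because CD24 is also a marker of luminal epithelial cells and CD44 of mesenchymal-like ones, the lineage markers are given beside them. The luminal keratin KRT8 rose by 1.58 (adjusted p = 2.46e-07) in Cis/TM 12 h, 1.26 (adjusted p = 9.24e-06) in Cis 24 h, 1.68 (adjusted p = 8.80e-08) in Cis 12 h and 1.05 (adjusted p = 0.000409) in TM 12 h. ZEB1, a repressor of epithelial genes, fell by 1.30 (adjusted p = 3.55e-09) in Cis/TM 12 h, 0.69 (adjusted p = 1.90e-05) in Cis 24 h and 1.56 (adjusted p = 3.16e-10) in Cis 12 h, and EGFR fell by 1.26 (adjusted p = 1.98e-07), 0.69 (adjusted p = 3.73e-04) and 1.36 (adjusted p = 5.76e-08) in the same groups. FN1, a mesenchymal matrix protein, rose by 0.84 (adjusted p = 6.73e-06) in Cis/TM 12 h and by 0.92 (adjusted p = 1.78e-06) in Cis 12 h, so that the mesenchymal markers did not share a direction. Of 13 luminal markers, none was called in Cis/TM 24 h, 4 were up in Cis 24 h, 3 in each cisplatin group at 12 h and 1 in TM 24 h, whereas TM 12 h had 2 up and 1 down. CDH1 and ESR1 were not among those called up. Of 5 mesenchymal markers, 1 was down in Cis/TM 24 h, 1 was up and 2 were down in Cis/TM 12 h, 2 were down in Cis 24 h, 2 were up and 1 was down in Cis 12 h, and 1 was down in TM 12 h. Of 5 basal markers 3 were measured, and 1 was down in Cis/TM 12 h, in both Cis groups and in TM 12 h. With cisplatin at 12 h, alone or joined by TM, 25.5% and 23.8% of all genes were called. At 24 h the share was 16.4% after cisplatin alone and 7.02% after both drugs. TM alone gave 12.1% at the earlier time and 7.72% at the later one. Lists of 13, 5 and 3 genes are too short for a comparison with these shares, so that no shift of lineage can be read from the counts. The part of these lineage markers in the changes of CD24 was not tested.

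Whether the drugs acted additively was asked by the interaction, the log2 change in Cis/TM minus the sum of the changes in Cis and in TM. At 24 h, 2 of 8 markers were called, where 16.5% of all genes were, and at 12 h none was (4 of 8 passed at an unadjusted p under 0.05), where 10.3% were. For NOTCH1 at 24 h, Cis/TM gave 0.33 where the single drugs summed to 1.26, an interaction of −0.93 (SE 0.21, adjusted p = 0.00342), and the call held under every alternative that was run, from −1.15 without Control B to −0.79 at the other end. Control A (4.87) and Control C (4.93) lay below Control B (5.57) for NOTCH1, and no fit left out both. Without Control arrays, NOTCH1 in Cis/TM 24 h differed by −0.27 from Cis (limma, adjusted p = 0.374). From TM it differed by −0.32 (adjusted p = 0.179), and neither difference was called. CD24 at 24 h had 0.14 in Cis/TM where the single drugs summed to −0.62, an interaction of 0.75 (SE 0.27, adjusted p = 0.0483). That call stood at the threshold and was lost in 13 of 20 alternatives, including quantile normalization (0.48, adjusted p = 0.267) and the fit without array A of TM 24 h (0.74, adjusted p = 0.0755). ITGA6 at 24 h fell by less in Cis/TM (−0.63) than the sum of the single drugs (−1.19), an interaction of 0.56 (SE 0.16, adjusted p = 0.0139) that did not reach the fold limit. It lay close to that limit, ran from 0.52 to 0.70 over the alternatives and was called under 7 of 21 of them. PROM1 had an interaction of 0.52 (SE 0.14, adjusted p = 0.00921) at 24 h, under the fold limit, and 0.23 (adjusted p = 0.204) after removal of the trend with level. At 12 h the interactions were 0.86 (adjusted p = 0.0526) for CD24, −0.60 (adjusted p = 0.0866) for NOTCH1 and 0.37 (adjusted p = 0.158) for ITGA6. The interaction uses the Control arrays with the opposite sign to each single drug, so that a change in these arrays moves it.

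**Figure D3:**
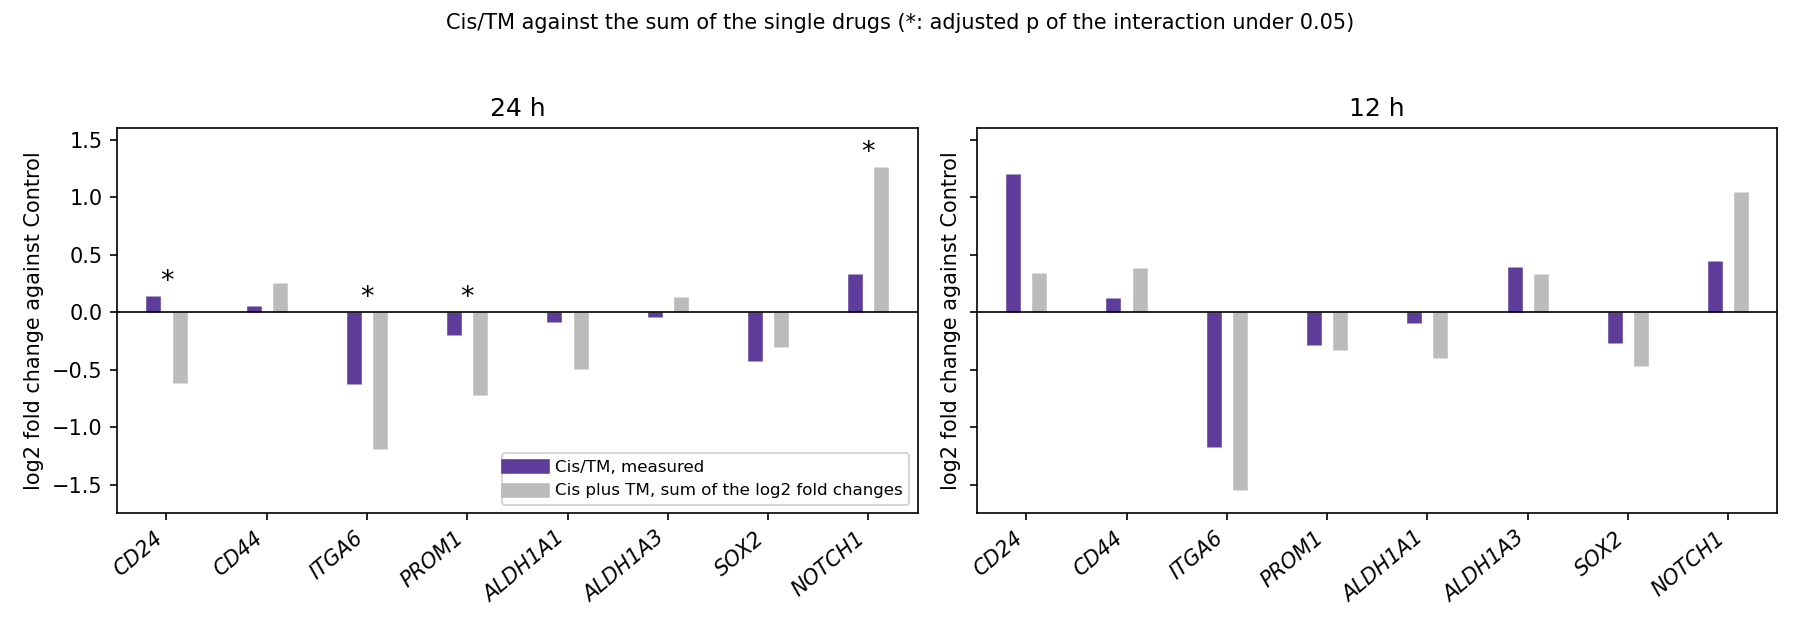
Log2 fold change against Control (vertical axis) measured in Cis/TM (left bar of each pair) and the sum of the log2 fold changes of Cis and TM (right bar) for the 8 measured markers at 24 h and 12 h; asterisks mark an interaction with an adjusted p under 0.05. At 24 h NOTCH1 gave 0.33 where the sum was 1.26, and CD24 gave 0.14 where the sum was −0.62.

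The 3 called markers had different profiles over the arrays. ITGA6 followed most closely DOCK5 (r = 0.98), an activator of Rac, FER (r = 0.98), a tyrosine kinase of cell junctions, and SMURF2 (r = 0.98), a ubiquitin ligase of TGF-beta signaling. For CD24 the closest were ASAH1 (r = 0.96), the lysosomal acid ceramidase, SIAE (r = 0.95), which removes acetyl groups from sialic acids, and TMEM254 (r = 0.94), and for NOTCH1 they were ARHGEF1 (r = 0.87), CDC25A (r = 0.83) and SMARCB1 (r = 0.82). These are Pearson correlations over 20 arrays within a pool of 5503 variable genes, the arrays of a group share their treatment, and the highest of many correlations is high by selection. Between the markers, CD24 and ITGA6 had r = −0.76 over the 20 arrays and 0.45 after subtraction of the group means, so that their opposite course lay between groups and not within them.

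**Figure D4:**
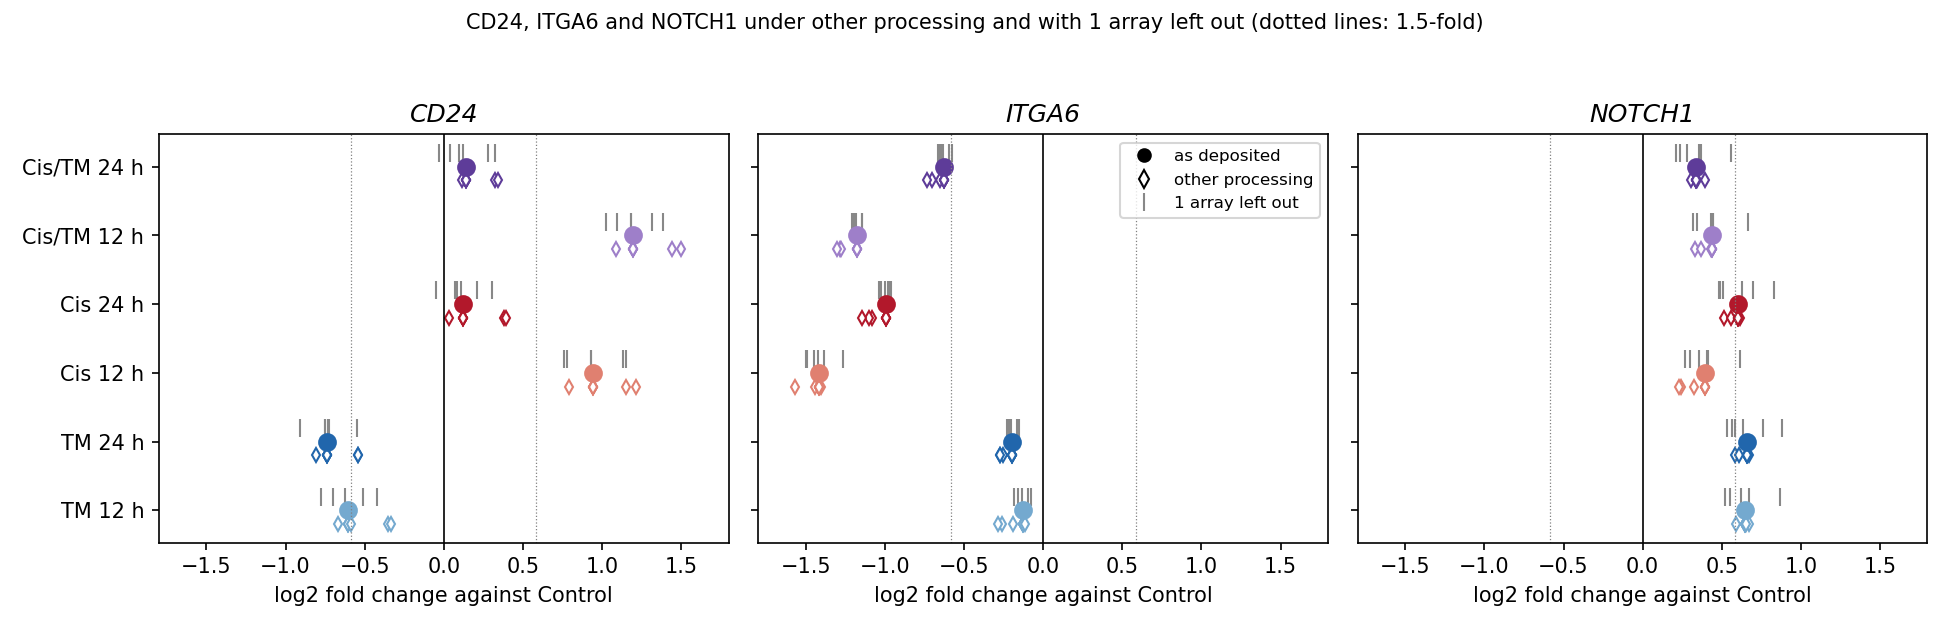
Log2 fold change against Control (horizontal axis) of CD24, ITGA6 and NOTCH1 in the 6 treated groups (rows): filled circles are values as deposited, open diamonds other processing, and grey ticks fits with 1 array left out; dotted lines mark a fold change of 1.5. The 4 changes of ITGA6 and the rises of CD24 in Cis/TM 12 h and Cis 12 h keep their side under every setting shown except ITGA6 in Cis/TM 24 h without array B of that group, whereas the NOTCH1 changes straddle the fold limit.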

How the data were processed

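RNA of MDA-MB-231 cells was measured on 20 Affymetrix Human Gene 1.0 ST arrays. The deposited log2 values (33297 transcript clusters), which the authors had obtained with RMA, were used as they are. The sources differ on RNA isolation (RNeasy in the methods, Trizol in the labels). A platform annotation gave 19460 clusters with 1 gene symbol. Clusters with several symbols (1754) and rows without a gene here (12083) were left out, and a gene with several clusters took the one with the highest mean, which left 18417 genes. No column of other samples was used.

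All arrays entered a single fit of 7 group means in limma 3.58.1 in R 4.3.3 (13 residual degrees of freedom, eBayes), with 17 contrasts and Benjamini-Hochberg adjustment over all genes of a contrast. It was tested on simulated data. The number of arrays limits the precision: the median standard error between groups was 0.135, and 0.151 with TM 12 h. For the interactions it was 0.203 at 12 h and 0.191 at 24 h. Alternatives were other scalings, filters, cluster rules, fits and thresholds, a replicate block and leaving out each array.

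The markers and the lists of related genes were chosen with earlier results of these data known. Named genes are all markers, identity markers, and the 3 genes most correlated with each called marker among genes with an SD of at least 0.3. From each related list, up to 4 genes with the lowest adjusted p among those called against Control were eligible. Not every eligible gene is named.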

Additional observations from a re-analysis of the deposited data

Results flagged for a closer look

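A difference between 24 h and 12 h, or an interaction of the drugs, passed an adjusted p of 0.05 for 5 of the markers (limma), with 9 such values in all. No group holds more than 3 arrays, so that single outlying arrays were not tested for. CD24 differed between 24 h and 12 h by −0.83 in Cis and by −1.06 in Cis/TM on the log2 scale, and its interaction of the drugs at 24 h was 0.75. ITGA6 differed between 24 h and 12 h by 0.42 in Cis and by 0.55 in Cis/TM, and its interaction at 24 h was 0.56. ALDH1A3 differed between 24 h and 12 h by −0.43 in Cis/TM. NOTCH1 had an interaction of −0.93 at 24 h and PROM1 of 0.52. The time differences use no Control array, whereas the 3 Control arrays enter each interaction. Of the 9, the 2 time differences of CD24 and the interactions of CD24 and NOTCH1 also exceeded the fold limit of 1.5.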

How the results depend on the processing

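The falls of ITGA6 in Cis/TM 12 h, Cis 24 h and Cis 12 h, the rises of CD24 in Cis/TM 12 h and Cis 12 h and the interaction of NOTCH1 at 24 h kept their calls under every alternative run that kept the gene. Beyond these, the number of markers called depended on the processing. Without the lowest 25% of genes, which removes CD24, PROM1, ALDH1A1 and SOX2, 1 marker was called in Cis/TM 12 h, Cis 12 h, TM 24 h and TM 12 h, 1 in each comparison of Cis/TM 12 h, Cis 12 h and Cis 24 h with TM, 0 between Cis/TM 24 h and TM 24 h, 0 between 24 h and 12 h in Cis and in Cis/TM, and 1 for the interaction at 24 h. Quantile normalization and removal of the trend with level left 1 (NOTCH1) in TM 24 h and TM 12 h, and removal of the trend or median centring left 1 (ITGA6) in Cis 24 h. With only the compared groups fitted, 1 was called in Cis 24 h and TM 24 h and 0 in TM 12 h. Median centring, which moved the median log2 fold change of all genes in Cis 12 h to −0.16 from −0.01 and the called genes there to 2027 up and 3075 down, from 2718 and 1983, gave 2 between Cis/TM 24 h and Cis/TM 12 h, and 1 and 4 for the interaction at 12 h and 24 h. The interaction at 12 h had 1 with a robust prior and 2 (CD24 and NOTCH1) at the methods' unadjusted p. Arrays that share a letter did not deviate together in every pair (residual correlations of same-letter pairs from −0.42 to 0.61, median 0.01 over 57 pairs); with the replicate block 1 marker (NOTCH1) was called in TM 12 h and for the interaction at 24 h, and no other count changed.

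With 1 array left out in turn, 2 to 3 markers were called in Cis/TM 12 h and in Cis 12 h, 0 to 2 in TM 12 h, 1 to 2 in Cis 24 h, 0 to 2 in TM 24 h, 0 to 1 in Cis/TM 24 h, 1 to 2 between Cis/TM 24 h and Cis/TM 12 h, 0 to 2 for the interaction at 12 h and 1 to 3 for that at 24 h. Values whose sign turned were all uncalled. PROM1 in Cis/TM 12 h was 0.0372 after removal of the trend with level. CD24 between Cis/TM 24 h and Cis 24 h was −0.0568 after quantile normalization and −0.0557 after removal of the trend, and −0.0841 to 0.1616 with an array left out; against Control it ran from −0.0495 to 0.3061 in Cis 24 h and from −0.0315 to 0.3241 in Cis/TM 24 h. Between TM 24 h and TM 12 h, ITGA6 was 0.0047 after quantile normalization and 0.0166 after removal of the trend, and NOTCH1 was −0.0023 after centring, −0.0043 after quantile normalization, −0.0373 after removal of the trend and −0.0618 to 0.1139 with an array left out. NOTCH1 between Cis 24 h and TM 24 h ran from −0.1700 to 0.0385.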
